A study of Rattus norvegicus with 100 samples.

Results

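Expression of 8 genes of the urea cycle and of nitrogen handling was followed in cultured primary rat hepatocytes exposed to GW7647, a synthetic agonist of the nuclear receptor PPARα. The genes were Cps1, Otc, Ass1, Asl, Arg1, Nags, Gls2 and Glul, listed by name for their role. Each was represented by the probe set that carried its symbol alone and had the highest mean over all arrays. All 8 were found among the 13439 genes with such a probe set, and all 8 were among the 8843 genes tested, those with a log2 intensity above 5 in at least 3 arrays. No array held any of the 8 at or under 5.

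The cultures were prepared from 4 rats, labelled Rs627, Rs628, Rs631 and Rs632. They were grown on collagen IV with a Geltrex overlay in William E medium and received GW7647 at 0 (none), 0.001, 0.01, 0.1, 1 or 10 µM for 2, 6, 12, 24 or 72 h. The resulting 30 groups held 2 to 4 arrays each, 100 in all, with each array measuring 1 culture of 1 rat. Whether the 0 µM cultures received the solvent is not given in the labels, and neither are the strain, age and sex of the rats. The model is limited to explanted hepatocytes in a culture matrix, and the 0 µM arrays of a time serve every concentration at that time.

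The urea cycle detoxifies ammonia released from amino acids. In the mitochondrion, Cps1 makes carbamoyl phosphate, which Otc joins to ornithine. In the cytosol, Ass1 joins citrulline to aspartate, Asl splits the product into arginine and fumarate, and Arg1 releases urea and restores ornithine. Nags makes N-acetylglutamate, the activator that Cps1 requires. Gls2, the liver glutaminase, supplies ammonia to periportal hepatocytes, and Glul, glutamine synthetase, captures the ammonia that escapes in hepatocytes around the central vein. PPARα activation in liver is known to lower several urea cycle genes and to raise genes of fatty acid oxidation.

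Promoters of 7 of the 8 genes were matched in the RefSeq table of assembly GRCr8, which holds the 250 bases before and 50 bases after each start site (300 bases). Gls2 and Glul had 2 entries each, which gave 9 promoters. PPARα binds with its partner RXR to a direct repeat of the hexamer AGGTCA with 1 base between, so these letters were searched for on both strands, together with other liver elements. The promoters of Ass1 and Otc, the genes with the largest falls at 72 h, and of Nags, which had the hexamer, are shown 5′ to 3′ in the direction of the gene. Capitals mark every match, on either strand, to the motifs named after the sequences, the C/EBP core site apart. The Ass1 promoter lies on the plus strand at chr3:35149480-35149779, around a start site 4965 bases inside the annotated start of the gene, so the window is within the gene. The Otc and Nags windows surround the annotated gene starts, with the Otc promoter on the minus strand at chrX:15202424-15202723, and the Nags promoter on the plus strand at chr10:87598266-87598565.
Ass1: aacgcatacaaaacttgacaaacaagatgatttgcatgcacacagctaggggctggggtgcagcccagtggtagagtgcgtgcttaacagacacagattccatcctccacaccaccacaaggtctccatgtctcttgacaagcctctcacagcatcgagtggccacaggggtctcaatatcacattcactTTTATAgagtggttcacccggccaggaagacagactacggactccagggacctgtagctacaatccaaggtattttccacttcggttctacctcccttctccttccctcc
Otc: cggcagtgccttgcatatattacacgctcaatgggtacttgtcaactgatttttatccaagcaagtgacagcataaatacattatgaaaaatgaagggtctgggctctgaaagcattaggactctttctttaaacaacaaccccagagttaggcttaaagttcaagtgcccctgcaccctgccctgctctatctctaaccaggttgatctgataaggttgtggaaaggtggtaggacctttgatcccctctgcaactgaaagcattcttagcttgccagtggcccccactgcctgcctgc
Nags: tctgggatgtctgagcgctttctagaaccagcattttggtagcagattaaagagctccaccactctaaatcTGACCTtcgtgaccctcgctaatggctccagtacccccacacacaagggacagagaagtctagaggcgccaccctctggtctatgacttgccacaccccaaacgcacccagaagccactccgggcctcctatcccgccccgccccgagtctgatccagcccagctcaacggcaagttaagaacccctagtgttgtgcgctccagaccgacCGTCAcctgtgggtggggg
The direct repeat AGGTCANAGGTCA was in none of the 9 promoters and in 0.0538% of all 33469 promoters of the table. The hexamer AGGTCA alone was in 1 of 9, at position -179 of Nags on the reverse strand, against 16.2% of all promoters. The Ass1 window held TATAAA on the reverse strand at position -60 (1 of 9 promoters, 14.2% of all). TGACG, the core of the cAMP element, was in 3 of 9, with a reverse-strand match in Nags at position 32 (21.2% of all). CCAAT was in 3 of 9 (37.5% of all), and the glucocorticoid receptor hexamer TGTTCT in none (20.7% of all). The C/EBP core site TTGC, left in lower case because it is so common, was in all 9 (84.3% of all). The C/EBP palindrome, which contains these letters, was in none (0.469% of all). The Otc window held no capital, which says only that these letters are not in these 300 bases.

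The 75th percentile of an array, a measure of its overall signal, ranged from 6.42 to 7.27, and 5 arrays lay under 6.6, among them 2 of the 4 arrays at 1 µM and 24 h and 1 of the 3 at 10 µM and 24 h. By their mean correlation with other arrays, 98 of 100 arrays were nearest to their own rat. The exceptions were the 0 µM arrays at 12 h labelled Rs627 and Rs628, each nearest to the other rat. Were their rat labels exchanged, the group mean and the fit without a rat term would stay the same. Only the block fit, values paired by rat and the settings that leave out a rat would change. An exchange was not tested, so the 12 h changes of Ass1 and Asl are also given without these arrays. That leaves 1 array, Rs631, at 0 µM and 12 h, so no p-value or count is given there. Hepatocyte markers were high (median log2 level 13.71 for Alb and 12.87 for Ttr), but the summed level of the 7 tested was lower with GW7647 at 72 h. It ranged from 15.186 to 15.285 at 0 µM, from 14.94 to 15.173 at 0.1 µM, from 14.844 to 14.997 at 1 µM and from 14.694 to 14.981 at 10 µM, below the 0 µM range in each case. Ttr, Fgb and Serpina1 were called lower at 1 and 10 µM and Apoa1 at 10 µM, Cyp2e1 was called higher at both, and Alb changed by 0.03 ± 0.04 at 10 µM. These lower levels stood beside the falls of Ass1 and Otc. The 4 endothelial markers Pecam1, Stab2, Lyve1 and Kdr stayed under the test's filter, as did the macrophage markers Cd163, Clec4f, Csf1r and Adgre1. The summed level of the 6 macrophage markers ranged from 8.91 to 9.67 at 0 µM and from 9.57 to 10.12 at 10 µM at 72 h, where Cd14 was called higher, and that of the 7 stellate cell markers from 7.67 to 7.998 and from 7.31 to 8.02. For the 5 bile duct markers, the summed level ranged from 9.84 to 11.31 and from 9.44 to 10.31. Over all arrays the median level was 10.28 for Epcam of the bile duct and 9.32 for Cd14 of the macrophage list. The other markers of both lists had medians under 5, so these sums follow mainly Epcam and Cd14. Of the stellate cell markers, Acta2 and Col1a2 were called lower at 72 h at 1 and 10 µM. The log2 difference between 3′ and 5′ probe sets of β-actin, a sign of RNA quality, ranged from 1.42 to 1.83 at 0 µM, from 1.75 to 2.08 at 1 µM and from 1.75 to 1.98 at 10 µM at 72 h. The part of the lower hepatocyte markers, of RNA quality and of these other cells in the 72 h results was not tested. In bulk RNA, fewer cells of a type and less RNA per cell cannot be told apart.

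The 8 genes did not move together. Ass1 was called lower from 12 h on, with larger falls at 24 and 72 h than at 2 h in their own test. Its average change over the times was -0.47 at 0.1 µM, -0.82 at 1 µM and -0.89 at 10 µM. No step between neighbouring concentrations was called. Otc was called lower at 10 µM and 72 h, and at 1 µM and 72 h only with the rat as a block. Cps1 fell slightly at 24 h, Arg1 rose slightly at 72 h, and Nags fell at 10 µM and 2 h. Asl, Gls2 and Glul were not called in any of the 25 comparisons of a concentration with 0 µM at the same time, although each of these 3 was called lower in at least 1 of them with the rat as a block. A gene was called where its adjusted p from limma was under 0.05 (Benjamini-Hochberg over the 8843 genes tested). Over the 25 comparisons Ass1 was called lower in 8, Cps1 in 2, and Otc and Nags in 1 each, while Arg1 was called higher in 3.

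**Figure D1:**
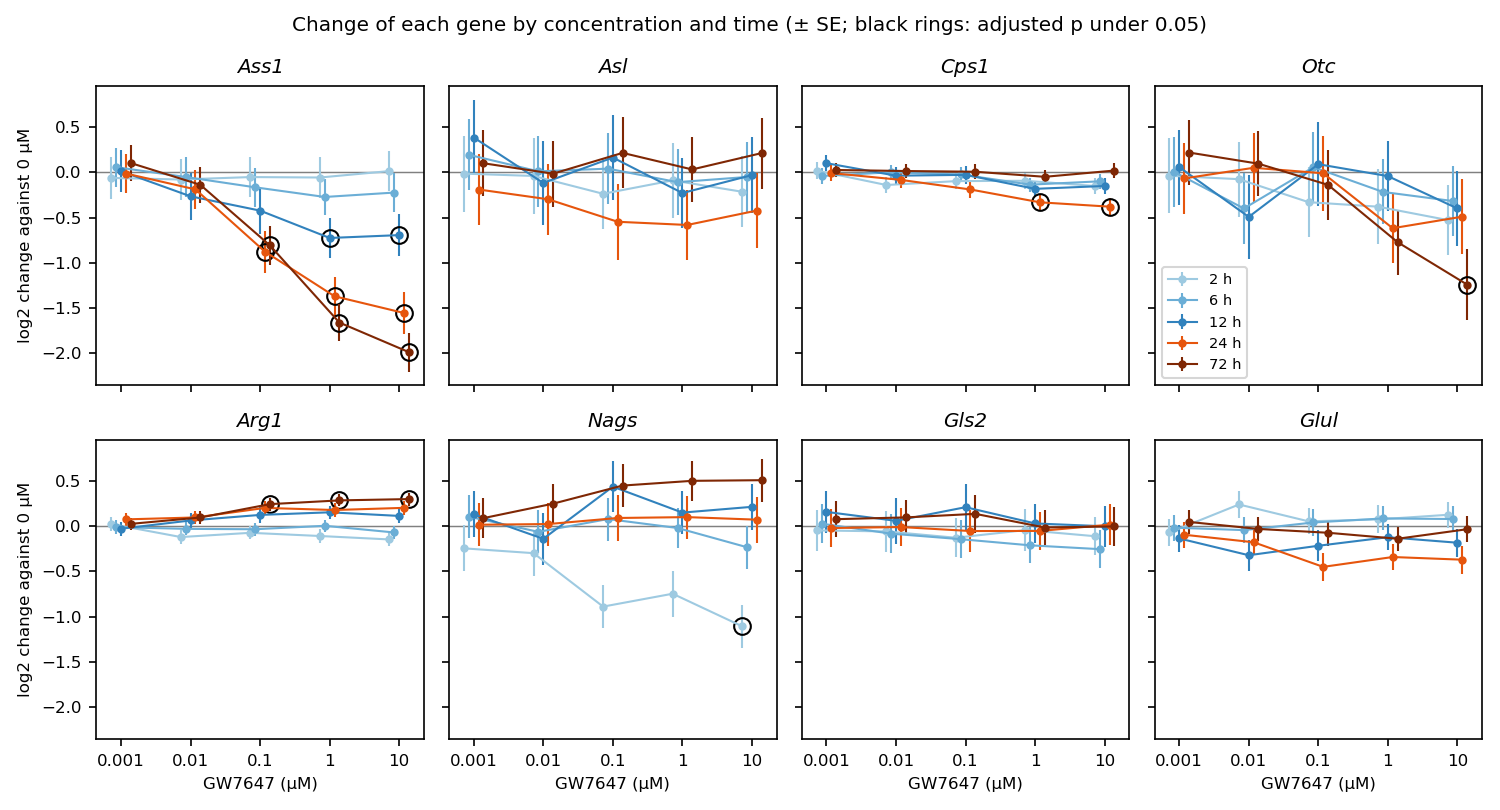
Log2 change of each gene against 0 µM at the same time (y axis) by GW7647 concentration in µM (x axis, evenly spaced steps), with 1 line per time and bars for ± SE of the limma fit. Rings mark an adjusted p under 0.05: 8 for Ass1, 3 for Arg1, 2 for Cps1 and 1 each for Otc and Nags.

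At 1 µM, the number of genes called lower among the 8 was 0, 0, 1, 2 and 1 at 2, 6, 12, 24 and 72 h. Of all genes tested, 0.0226%, 0.305%, 1.45%, 22.6% and 15.5% were called lower at these times. For the counts of 0, limma gave 1 of the 8 an unadjusted p under 0.05 at 2 h and 0 at 6 h. With the rat as a block, the counts at 1 µM became 2 at 12 h (Ass1 and Asl), 4 at 24 h (with Asl and Glul added) and 2 at 72 h (with Otc added), against 4.26%, 38.4% and 24.0% of all genes in that fit. The 12 h counts include the 2 arrays at 0 µM that resembled the other rat. Without them 1 array was left at 0 µM and 12 h, so no count is given for that setting. At 10 µM the counts were 1, 0, 1, 2 and 2, against 0.52%, 2.74%, 2.4%, 10.7% and 15.6% of all genes. At 0.1 µM they were 0, 0, 0, 1 and 1, against 0.0452%, 0.0339%, 0.0792%, 1.36% and 4.82%. The median change of the 8 genes was -0.34 at 1 µM and 24 h and -0.03 at 72 h, against -0.23 and -0.06 for all genes tested. At 10 µM and 72 h it was 0.01, against -0.04. Quantile normalization moved the all-gene split between lower and higher calls. At 1 µM it became 2.85% lower and 4.22% higher at 12 h, from 1.45% and 3.96%, and 15.5% and 10.4% at 24 h, from 22.6% and 7.06%, where the median change of all genes became -0.07. At 10 µM it became 1.96% and 2.39% at 6 h, from 2.74% and 1.56%, and 4.8% and 5.45% at 12 h, from 2.4% and 5.55%. At 0.1 µM it became 2.32% and 3.61% at 24 h, from 1.36% and 2.96%, and 4.95% and 6.32% at 72 h, from 4.82% and 4.0%.

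At 0.001 µM no gene of any kind was called at any of the 5 times (0.0% of those tested; 11 to 101 genes had an unadjusted p under 0.05, none of them among the 8). At 0.01 µM none of the 8 was called (0 at an unadjusted p under 0.05), against 0.0113%, 0.0%, 0.0339%, 0.136% and 0.418% of all genes in either direction (54 genes with an unadjusted p under 0.05 at 6 h).

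Averaged over the 5 times, the number called lower was 0 at 0.001 and 0.01 µM, 1 at 0.1 µM (Ass1), 2 at 1 µM (Ass1 and Cps1) and 3 at 10 µM (Ass1, Cps1 and Otc). Of all genes tested, 7.94%, 23.6% and 27.7% were called lower at 0.1, 1 and 10 µM, and Arg1 was the 1 member called higher, at 1 µM (11.7% of all genes). With the rat as a block, the number called lower at 1 µM became 4, by the addition of Asl and Otc, and that at 0.1 µM became 2, by the addition of Asl, against 34.6% and 18.4% of all genes in that fit. Steps between neighbouring concentrations, averaged over the times, were called for none of the 8, against 0.645%, 4.08%, 1.06% and 0.0% of all genes from the lowest step to the highest. The unadjusted p was under 0.05 for 0, 2, 2 and 0 of the 8 at these steps, and for 98 of all genes at the step from 1 to 10 µM, where limma called none.

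Ass1, argininosuccinate synthetase, showed the largest span of group means among the 8, from 9.20 to 11.45 on the log2 scale. At 2 h its level did not separate by concentration. Without GW7647, Rs627 read 11.34, Rs631 read 11.53 and Rs632 read 11.44. At 10 µM the readings were 11.34, 11.23, 11.79 and 11.44 in Rs627, Rs628, Rs631 and Rs632. The change at 10 µM and 2 h was 0.01 ± 0.22 (SE). At 6 h all 4 rats were lower at 1 µM than at 0 µM, with a change of -0.27 ± 0.20, but the groups overlapped and the change was not called (adjusted p = 0.925).

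By 12 h Ass1 read 11.30, 11.42 and 11.52 at 0 µM in the arrays labelled Rs627, Rs628 and Rs631. At 1 µM it read 10.68, 10.32, 11.04 and 10.71 in Rs627, Rs628, Rs631 and Rs632, all under the lowest 0 µM array. The change was -0.73 ± 0.22, a 1.65-fold lower level (limma adjusted p = 0.0286). At 10 µM the change was -0.69 ± 0.23 (adjusted p = 0.0474), with 1 array, Rs631 at 11.32, inside the range of 0 µM. At 0.1 µM, with 2 arrays, the change was -0.42 ± 0.26 (adjusted p = 0.715, or 0.0471 with the rat block). That block call includes the 0 µM arrays labelled Rs627 and Rs628. Both calls at 1 and 10 µM were lost in many settings. At 1 µM the adjusted p was 0.148 with 12 h arrays alone, 0.195 without rat Rs627 or without Rs628 and 0.0956 without Rs632. At 10 µM it was 0.164 with 12 h arrays alone. Without the 0 µM arrays labelled Rs627 and Rs628, 1 array (Rs631) was left at 0 µM, so only changes are given for this setting. They were -0.84 at 1 µM and -0.80 at 10 µM, and -0.51 and -0.50 with the block. The 1 µM change ranged from -0.84 to -0.51 over the alternatives.

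At 24 h the fall was larger. The 0 µM arrays read 11.48, 11.65 and 11.13 in Rs627, Rs631 and Rs632. At 0.1 µM the level was 10.49, 10.32 and 10.81 in Rs627, Rs628 and Rs631, at 1 µM it was 10.06, 9.89, 10.61 and 9.64 in the 4 rats, and at 10 µM 9.58, 10.70 and 9.32 in Rs628, Rs631 and Rs632. No array at 0.1 µM or above reached the lowest 0 µM array. The changes were -0.88 ± 0.23 (adjusted p = 0.0119), -1.37 ± 0.22 (adjusted p = 9.94e-07) and -1.55 ± 0.23 (adjusted p = 2.59e-07), or 1.84-fold, 2.58-fold and 2.94-fold lower. The 0.1 µM call was lost with 24 h arrays alone (0.138), without Rs627 (0.309) and without Rs628 (0.0963). At 24 h, 3 of the arrays at 1 and 10 µM had low signal. The 1 and 10 µM calls held without them, as in every other setting.

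At 72 h Ass1 reached its lowest levels. The 0 µM arrays read 10.84, 11.05, 11.55 and 11.31 in Rs627, Rs628, Rs631 and Rs632. At 1 µM the same rats read 9.51, 9.34, 10.04 and 9.23, and at 10 µM Rs628, Rs631 and Rs632 read 9.12, 9.35 and 9.15. The change was -1.66 ± 0.20 at 1 µM (3.16-fold lower, limma adjusted p = 3.03e-10) and -1.99 ± 0.22 at 10 µM (3.96-fold lower, adjusted p = 7.34e-12), lower in 4 of 4 and 3 of 3 rats. At 0.1 µM the arrays read 10.38, 10.70 and 10.07 in Rs628, Rs631 and Rs632, also under the 0 µM range, with a change of -0.81 ± 0.22 (adjusted p = 0.00937, but 0.276 without Rs632). At 0.01 and 0.001 µM the groups overlapped with 0 µM, with changes of -0.14 ± 0.20 and 0.10 ± 0.20.

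**Figure D2:**
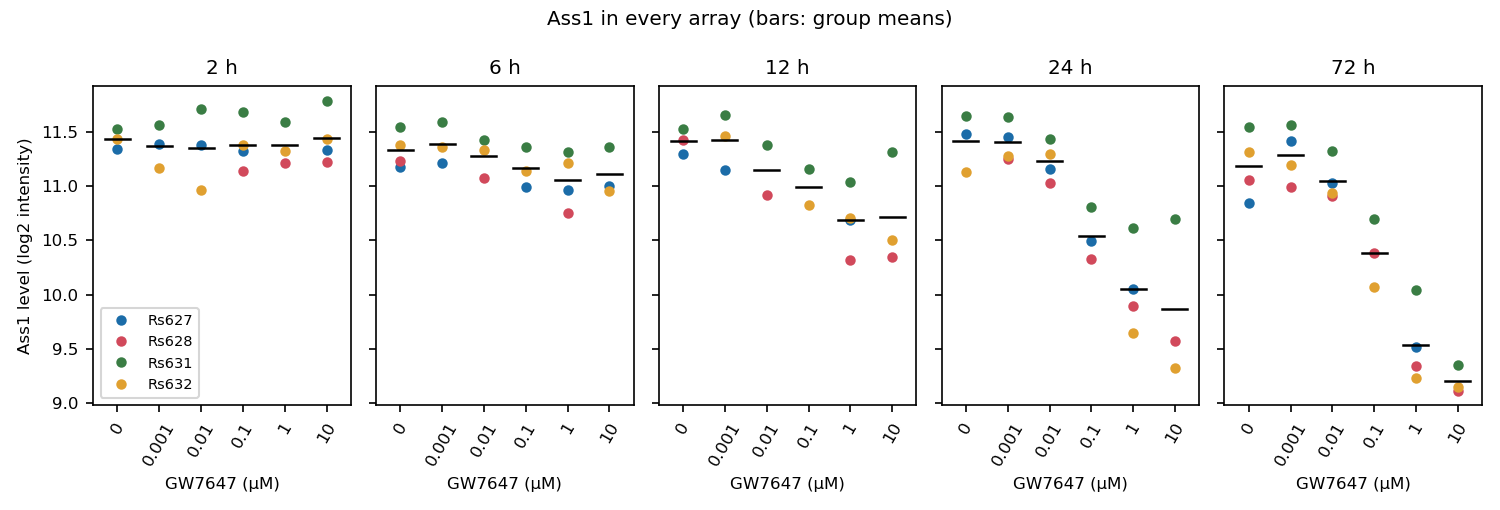
Ass1 level in log2 intensity (y axis) in every array by GW7647 concentration in µM (x axis, evenly spaced), with 1 panel per time. Points are arrays coloured by rat and bars are group means. The 72 h arrays at 10 µM lie between 9.12 and 9.35 and those at 0 µM between 10.84 and 11.55.

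The Ass1 change differed between times in its own test. From 2 to 24 h the difference was negative at 1 µM (-1.31 ± 0.32 on the log2 scale, adjusted p = 0.0062; 3.1% of all genes called lower in this difference) and at 10 µM (-1.57 ± 0.32, adjusted p = 0.000513; 1.7%). From 2 to 72 h the difference was -1.60 ± 0.31 at 1 µM (adjusted p = 0.000127; 4.26%) and -1.999 ± 0.31 at 10 µM (adjusted p = 7.99e-07; 6.16%). The 24 to 2 h differences were lost without Rs632 at both concentrations (0.118 and 0.0793) and without Rs627 at 1 µM (0.0991). The difference between 72 and 24 h was not called for any of the 8, against 0.0226% of all genes at 1 µM and 0.0679% at 10 µM (1 of the 8 with an unadjusted p under 0.05 at each), and for Ass1 it was -0.29 ± 0.29 and -0.43 ± 0.32. Averaged over the times, the Ass1 change was -0.47 ± 0.10 at 0.1 µM, -0.82 ± 0.10 at 1 µM and -0.89 ± 0.10 at 10 µM. The step from 0.01 to 0.1 µM was -0.32 ± 0.10 (adjusted p = 0.0678; 4.5e-05 with the rat block), that from 0.1 to 1 µM -0.35 ± 0.10 (0.0643; 0.000246 with the block) and that from 1 to 10 µM -0.07 ± 0.10 (adjusted p = 1).

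Over the 30 group means, the 3 tested genes whose pattern was most like that of Ass1 were B4galt5 (Pearson r 0.987), Rcan1 (0.978) and Gas6 (0.978). These points share arrays, rats and controls, so the values are a description. Among the 8, Ass1 ran closest to Cps1 (r 0.74) and Otc (0.68) and opposite to Arg1 (-0.66). With each time's mean removed, the values were 0.63 for Cps1, 0.79 for Otc and -0.82 for Arg1.

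Otc, ornithine transcarbamylase, stands just before Ass1 in the cycle and was the other gene with a fall of more than 2-fold at 72 h. At 0 µM its level was 8.38, 7.13, 8.38 and 7.75 in Rs627, Rs628, Rs631 and Rs632. At 10 µM it was 6.22, 6.98 and 6.80 in Rs628, Rs631 and Rs632, all under the lowest 0 µM array. The change was -1.24 ± 0.39, 2.36-fold lower (limma adjusted p = 0.0104). Rs627, which read 8.38 at 0 µM, has no array at 10 µM. With the rat as a block the change was smaller, at -1.06 ± 0.27 (adjusted p = 0.000733). The call was lost without Rs631 (0.0757) and without Rs632 (0.0615). At 1 µM the arrays read 7.86, 7.02, 7.35 and 6.31 in the 4 rats and overlapped with 0 µM. Each of the 4 rats was lower, with a change of -0.77 ± 0.36 (adjusted p = 0.104; 0.00811 with the rat as a block). At 24 h the levels at 1 µM overlapped with those at 0 µM and the change was not called. Averaged over times, the Otc change was -0.41 ± 0.17 at 1 µM (adjusted p = 0.0552; 0.0271 with the block) and -0.60 ± 0.18 at 10 µM (adjusted p = 0.00533; 0.107 without the 23 arrays whose plate position is given more than once). With the block these average changes were -0.30 at 1 µM and -0.44 at 10 µM. The genes with the pattern most like Otc were Dpt (r 0.918), Cp (0.877) and Hrg (0.862).

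Cps1, carbamoyl phosphate synthetase, was called lower against 0 µM at 24 h alone of the 5 times. The 0 µM arrays read 12.40, 12.20 and 12.12 in Rs627, Rs631 and Rs632. At 1 µM they read 11.95, 11.89, 11.87 and 11.92 in the 4 rats, and at 10 µM 11.81, 11.81 and 11.96 in Rs628, Rs631 and Rs632, with no overlap in either case. The change was -0.33 ± 0.08 at 1 µM (1.26-fold lower, adjusted p = 0.00202) and -0.38 ± 0.09 at 10 µM (1.30-fold lower, adjusted p = 0.00123), and both calls held in every setting. At 1 µM and 24 h all tested genes had a median of -0.23, and 2 of the 4 arrays had low signal. Leaving out the 5 low-signal arrays kept both calls. A second Cps1 probe set changed by -0.50 ± 0.24 (adjusted p = 0.108) at 1 µM, over all probe sets. At 72 h the Cps1 change was -0.05 ± 0.08 at 1 µM and 0.02 ± 0.09 at 10 µM, not called. Averaged over times it was -0.16 ± 0.04 at 1 µM (adjusted p = 0.000402) and -0.15 ± 0.04 at 10 µM (0.000994), where the call was lost without the arrays at repeated plate positions (-0.08; 0.12) and without Rs628 (-0.09; 0.0742). In the 0 µM cultures, Cps1 fell by 0.31 from 2 to 72 h (adjusted p = 0.0234; 3.18% of all genes were called lower and 0.226% higher, or 0.494% and 0.426% after quantile normalization), a call lost under quantile normalization (0.511) and median centring (1), and without each of the 4 rats in turn (0.0597 to 0.182).

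Nags, the enzyme that makes the activator of Cps1, was lower at 2 h. At 0 µM its level was 8.29, 8.48 and 8.19 in Rs627, Rs631 and Rs632, and at 10 µM 7.53, 6.67, 7.71 and 6.94 in Rs627, Rs628, Rs631 and Rs632. The groups did not overlap, and the 3 rats present in both were lower at 10 µM. The change was -1.11 ± 0.24, 2.16-fold lower (limma adjusted p = 0.00332). Rs628, absent from 0 µM, held the lowest array, and without this rat the change was -0.93 (adjusted p = 0.000263). The call was lost with 2 h arrays alone (0.144), without Rs632 (0.339) and without the arrays at repeated plate positions, where the change was -0.70 (0.929). At 0.1 µM the 2 h change was -0.89 ± 0.24 (adjusted p = 0.119; 0.00509 with the block), with arrays at 7.49, 6.91, 7.40 and 7.92 in the 4 rats, all under the 0 µM range. At 1 µM Rs628, Rs631 and Rs632 read 7.13, 7.83 and 7.76, also under it, and the change of -0.75 was not called. The 0.001 µM arrays read 8.18, 8.01 and 8.04 in Rs627, Rs631 and Rs632. They too lay under the 0 µM range, each lower than its own rat at 0 µM, although no gene was called at 0.001 µM. At 0.01 µM the groups overlapped. Lack of overlap with 0 µM at 2 h was thus not limited to concentrations with calls.

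At 72 h Nags lay on the other side of 0 µM. The 0 µM arrays read 8.33, 7.79, 8.59 and 8.37 in Rs627, Rs628, Rs631 and Rs632, and the 1 µM arrays 8.78, 8.59, 8.84 and 8.86, higher in each rat. The 1 µM change was 0.50 ± 0.22, not called (adjusted p = 0.0846; 0.00574 with the block), and the same held at 0.1 µM (0.45 ± 0.24; 0.244, and 0.0301 with the block) and 10 µM (0.50 ± 0.24; 0.106, and 0.00744 with the block). The difference of the Nags changes between 72 and 2 h was called, at 1.25 ± 0.34 at 1 µM (adjusted p = 0.00934; 4.4% of all genes called higher in this difference) and 1.61 ± 0.34 at 10 µM (adjusted p = 0.000254; 8.45%). The 1 µM call was lost without Rs627 (0.0683) and without Rs632 (0.08), and the 10 µM call without the arrays at repeated positions (0.0758). The difference between 24 and 2 h at 10 µM was 1.18 ± 0.35 (adjusted p = 0.0304; 3.03%), lost in 6 of its 15 alternatives, and at 1 µM it was 0.85 ± 0.35 (adjusted p = 0.135; 0.0113 with the block). Glyctk (r 0.96), Rtp3 (0.96) and Bcl6 (0.934) had the patterns most like that of Nags.

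Arg1, arginase, rose by a small amount at 72 h. At 0 µM its arrays read 12.31, 12.24, 12.32 and 12.32 in Rs627, Rs628, Rs631 and Rs632. At 1 µM they read 12.62, 12.67, 12.42 and 12.60 in the same rats, and at 10 µM 12.58, 12.59 and 12.62 in Rs628, Rs631 and Rs632, all above the 0 µM range. The change was 0.28 ± 0.07 at 1 µM (1.22-fold higher, adjusted p = 0.000717; 11.3% of all genes were called higher) and 0.30 ± 0.07 at 10 µM (1.23-fold higher, adjusted p = 0.000917; 12.5%), called in every setting. At 0.1 µM it was 0.24 ± 0.07 (1.18-fold higher, adjusted p = 0.0239; 4.0%), a call lost with 72 h arrays alone (0.105) and without Rs627 (0.0848), Rs628 (0.159) or Rs632 (0.168). At 24 h the changes of 0.18 at 1 µM and 0.20 at 0.1 and 10 µM were not called (adjusted p = 0.0573, 0.164 and 0.0637), but were with the rat block (0.0172, 0.0264 and 0.0119). The Arg1 change was larger at 72 h than at 2 h by 0.39 ± 0.10 at 1 µM (adjusted p = 0.00698) and 0.45 ± 0.10 at 10 µM (adjusted p = 0.00104). The 1 µM difference was lost without Rs627 (0.178) or Rs632 (0.0592), and the 10 µM difference without the arrays at repeated positions (0.0557). The difference between 24 and 2 h at 10 µM was 0.35 ± 0.11 (adjusted p = 0.0379), lost in 8 of its 15 alternatives, and at 1 µM it was 0.29 ± 0.11 (adjusted p = 0.0971; 0.0237 with the block). Averaged over times, the Arg1 change was 0.10 ± 0.03 at 1 µM (adjusted p = 0.0104, but 0.211 without Rs632), and the block added calls at 0.1 µM (0.00986, from 0.0662) and 10 µM (0.0156, from 0.0587). Aldh6a1 (r 0.923), Ndufc1 (0.912) and Nxpe4 (0.911) were most like Arg1.

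**Figure D3:**
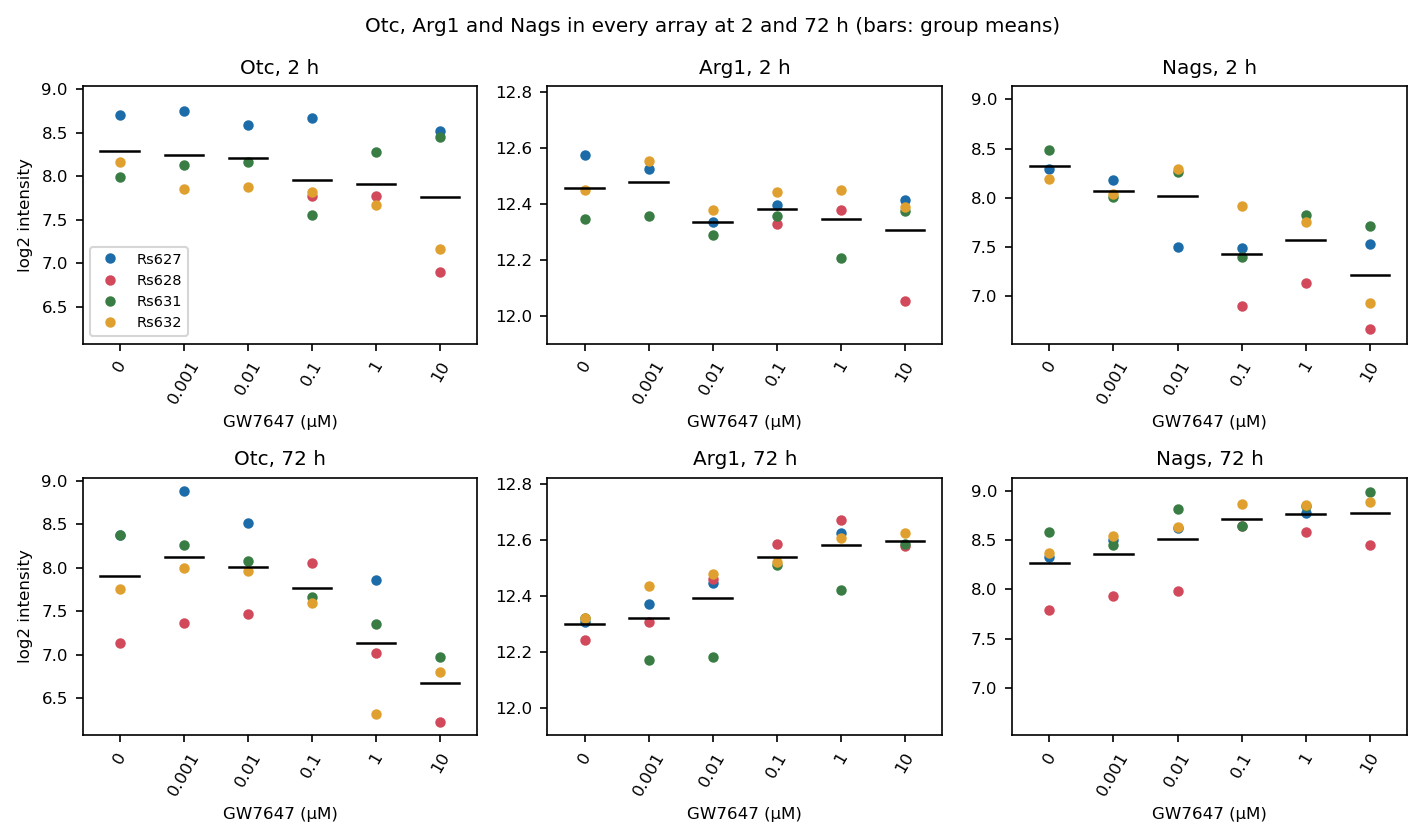
Levels of Otc, Arg1 and Nags in log2 intensity (y axes, each gene on its own scale) in every array at 2 h (top) and 72 h (bottom) by GW7647 concentration in µM (x axes, evenly spaced). Points are arrays coloured by rat and bars are group means. At 72 h and 10 µM the 3 Otc arrays lie between 6.22 and 6.98 and the 3 Arg1 arrays between 12.58 and 12.62.

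Asl, argininosuccinate lyase, follows Ass1 in the cycle and was not called. Its level differed between rats: at 0 µM and 72 h Rs627, Rs628, Rs631 and Rs632 read 9.76, 9.64, 10.72 and 10.70. At 1 µM and 72 h the same rats read 9.91, 9.59, 10.78 and 10.67, with a change of 0.03 ± 0.36. At 24 h the 1 µM change was -0.58 ± 0.39 (adjusted p = 0.246), lower in each of the 3 rats with both arrays. With the rat as a block it was -0.41 (adjusted p = 0.000775), and at 10 µM -0.35 (0.00843). At 12 h and 1 µM the change was -0.23 (adjusted p = 0.912). With the block it was -0.32 (0.0271). Without the 0 µM arrays labelled Rs627 and Rs628 as well it was -0.27, with 1 array left at 0 µM. A block removes the differences between rats from the error, and the arrays of a rat are paired by animal. A second Asl probe set changed by -0.41 ± 0.42 at 1 µM and 24 h.

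Glul, glutamine synthetase, read 9.33, 9.24 and 9.42 at 0 µM and 24 h in Rs627, Rs631 and Rs632. At 0.1 µM it read 8.97, 8.85 and 8.81 in Rs627, Rs628 and Rs631, under the 0 µM range, and at 1 µM 8.94, 8.65, 8.96 and 9.40 in the 4 rats, which overlapped. The changes at 0.1, 1 and 10 µM were -0.45 ± 0.15, -0.34 ± 0.14 and -0.37 ± 0.15, none of them called (adjusted p = 0.0842, 0.0608 and 0.085). With the block the adjusted p was 0.0328, 0.0324 and 0.072, and without the arrays of low signal the 1 µM change was -0.54 (0.0158). The 10 µM change was called under median centring (-0.41; 0.0473) and without the arrays at repeated plate positions (-0.42; 0.0471). Without the latter arrays Glul was also called lower over all times at 10 µM (-0.18; 0.0382, from -0.08; 0.356). At 72 h the changes were -0.08, -0.14 and -0.04. Its 2 other probe sets changed by -0.44 ± 0.30 and -0.37 ± 0.21 at 1 µM and 24 h.

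Gls2, the liver glutaminase, was not called either. At 72 h its 0 µM arrays read 7.23, 7.29, 7.86 and 7.70 and its 1 µM arrays 7.51, 7.25, 7.83 and 7.42 in Rs627, Rs628, Rs631 and Rs632, and the groups overlapped at every time and concentration. The most negative Gls2 change was -0.26 ± 0.21, at 10 µM and 6 h (adjusted p = 0.447; 0.00655 with the block). The 3 arrays of that group read 7.33, 7.83 and 7.56 in Rs627, Rs631 and Rs632, and 1 of them had low signal.

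The genes around the cycle moved in both directions at 72 h. Of all genes tested, 15.5% were called lower and 11.3% higher at 1 µM, and 15.6% and 12.5% at 10 µM, and each list's counts are set against these shares. With the rat as a block the shares were 24.0% and 16.3% at 1 µM and 24.0% and 17.1% at 10 µM. Those that handle ornithine, arginine and polyamines gave 2 lower and 1 higher of 13 tested at 1 µM, and 3 lower and 1 higher at 10 µM, of which 2 of 13 lower is near the share of all genes. Oat, ornithine aminotransferase, rose by 1.98 ± 0.48 and 2.35 ± 0.52 on the log2 scale, while Prodh, proline dehydrogenase, fell by 1.13 at both concentrations. Odc1, ornithine decarboxylase, changed by -0.35 and -0.46, and Aldh18a1, which makes pyrroline-5-carboxylate, fell by 0.72 at 10 µM. The list's median change was -0.15 at 1 µM and -0.32 at 10 µM, against -0.06 and -0.04 for all genes tested. With the rat as a block the calls at 10 µM became 6 lower and 2 higher, and at 1 µM 5 and 2. Under quantile normalization they were 5 and 1 at 10 µM (17.9% and 15.4% of all genes) and 4 and 1 at 1 µM (17.2% and 14.6%). At 1 µM they were also 4 and 1 without the arrays of low signal (19.1% and 13.6%) and without those at repeated positions (20.8% and 14.0%).

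The carriers and suppliers of the cycle, 7 tested, gave 1 lower, near the share of all genes, and 3 higher at both concentrations (medians of 0.09). With the block 2 were lower. Car5a, the mitochondrial carbonic anhydrase that supplies bicarbonate, was lower, with changes of -1.13 and -1.55. Slc25a13, the aspartate-glutamate carrier of liver, rose by 0.92 ± 0.12 and 1.01 ± 0.13, the glutamate carrier Slc25a22 by 0.53 ± 0.15 and 0.73 ± 0.17, and Sirt3, a mitochondrial deacylase, by 1.35 ± 0.23 and 1.48 ± 0.25. The ornithine carrier Slc25a15 changed by -0.33 ± 0.34 and -0.04 ± 0.36, not called.

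Of 11 genes that exchange glutamate, aspartate and alanine, 3 were lower and 2 higher at 1 µM, and 2 and 2 at 10 µM, the latter close to the shares of all genes. Aqp9, a channel for glycerol and urea, had a mean of 6.25 at 0 µM and lay at or under a log2 level of 5 in 4 of 4 arrays at 1 µM and 3 of 3 at 10 µM. Values at or under 5 were set to 5 for genes with a whole group there, which made Aqp9 at least 2.38-fold lower. For Hal and Cebpd below, with 1 array there, the fitted change and the change after this step are both given. Slc38a3, a glutamine transporter, changed by -0.76 and -0.99, and Slc38a4 fell by 0.36 at 1 µM. Gpt, alanine aminotransferase, rose by 1.69 ± 0.42 and 2.00 ± 0.45, and Got2, the mitochondrial aspartate aminotransferase, by 0.34 ± 0.07 and 0.35 ± 0.07. The list's median change was 0.13 at 1 µM and 0.14 at 10 µM. With the block 4 were higher at 1 µM.

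Of 23 genes of amino acid breakdown, 11 were higher and 4 lower at 1 µM, and 14 were higher and 2 lower at 10 µM, with medians of 0.59 and 0.57, where 11.3% and 12.5% of all genes were higher and 15.5% and 15.6% lower. Under median centring 2 were lower at 1 µM. At 10 µM the 6 by smallest p were Cbs (1.83 ± 0.19), Gldc (2.12 ± 0.29), Bckdha (0.97 ± 0.14), Dbt (1.09 ± 0.17), Gstz1 (1.16 ± 0.20) and Fah (0.57 ± 0.12), which act on sulphur amino acids, glycine, branched-chain amino acids and tyrosine. The 2 falls at 10 µM, named after their values were seen, were Kmo of tryptophan breakdown (at or under 5 in all 3 arrays at 10 µM, so at least 2.22-fold lower) and Hal, histidine ammonia-lyase (-1.07 ± 0.39, with 1 of 3 arrays at or under 5). With that value set to 5, the Hal change was -0.98.

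Among 14 regulators known for urea cycle genes, 4 were lower and 3 higher at both concentrations (all genes: 15.5% and 11.3% at 1 µM, 15.6% and 12.5% at 10 µM), with medians of 0.08 and 0.13. At 10 µM Cebpd fell by 2.13, with 1 of 3 arrays at or under 5, and its change was -2.09 with that value set to 5. Gcgr, the glucagon receptor, fell by 1.29 and Foxa2 fell by 0.61. Ppargc1a, a coactivator of the fasting response, was at or under 5 in the 3 arrays at 10 µM and at least 1.64-fold lower. Cebpb rose by 1.04 ± 0.16 and Klf15, a regulator of amino acid breakdown, by 0.96 ± 0.21. Ppara was called higher, but lay at or under 5 in all 4 arrays at 0 µM and in 1 of 3 at 10 µM (at least 1.21-fold higher). Hnf4a changed by 0.20 ± 0.22 and Cebpa by 0.18 ± 0.20, not called. The 10 tested PPARα targets were all called higher at both concentrations, with medians of 2.46 and 2.59.

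Liver lobules are zoned, with urea synthesis strongest around the portal vein and glutamine synthesis around the central vein. Of 6 other periportal genes tested, 4 were lower and 0 higher at 72 h at both concentrations, against 15.5% and 15.6% of all genes lower: Cdh1 (-1.37 ± 0.39 at 1 µM and -1.88 ± 0.42 at 10 µM), Gcgr (-0.80 ± 0.30 and -1.29 ± 0.33), Hal (-1.22 ± 0.36 and -1.07 ± 0.39) and Cyp2f4 (-0.77 ± 0.21 and -0.88 ± 0.23). Hal had 1 array at or under 5 at each concentration, and with it set to 5 its changes were -1.13 and -0.98. Pck1 changed by 0.80 ± 0.58 and 0.59 ± 0.63, not called. Of 6 other perivenous genes, 4 were higher and 0 lower, against 11.3% and 12.5% of all genes higher: Cyp2e1 (at or under 5 in all 4 arrays at 0 µM, so at least 4.57-fold higher at 1 µM and 8.98-fold at 10 µM), Oat, Gulo (0.78 ± 0.13 and 0.82 ± 0.14) and Lhpp (0.66 ± 0.14 and 0.68 ± 0.16). Cyp1a2 and Tbx3, the other perivenous genes tested, were not called, and Tbx3 lay at or under 5 in every 72 h array at 0, 1 and 10 µM. Glul itself, the defining perivenous gene of nitrogen handling, was not called, and Gls2, a periportal one, was not either. Among the genes of urea synthesis, Ass1 was called lower at both concentrations and Otc at 10 µM, but Arg1 was called higher at both. Cps1, Asl and Nags were not called. With the rat as a block, limma also called Nags higher at 1 and 10 µM (adjusted p = 0.00574 and 0.00744). That fit called Otc lower at 1 µM as well (0.00811). Gcgr and Hal are also in the lists of regulators and amino acid breakdown, and Oat in that of ornithine metabolism.

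**Figure D4:**
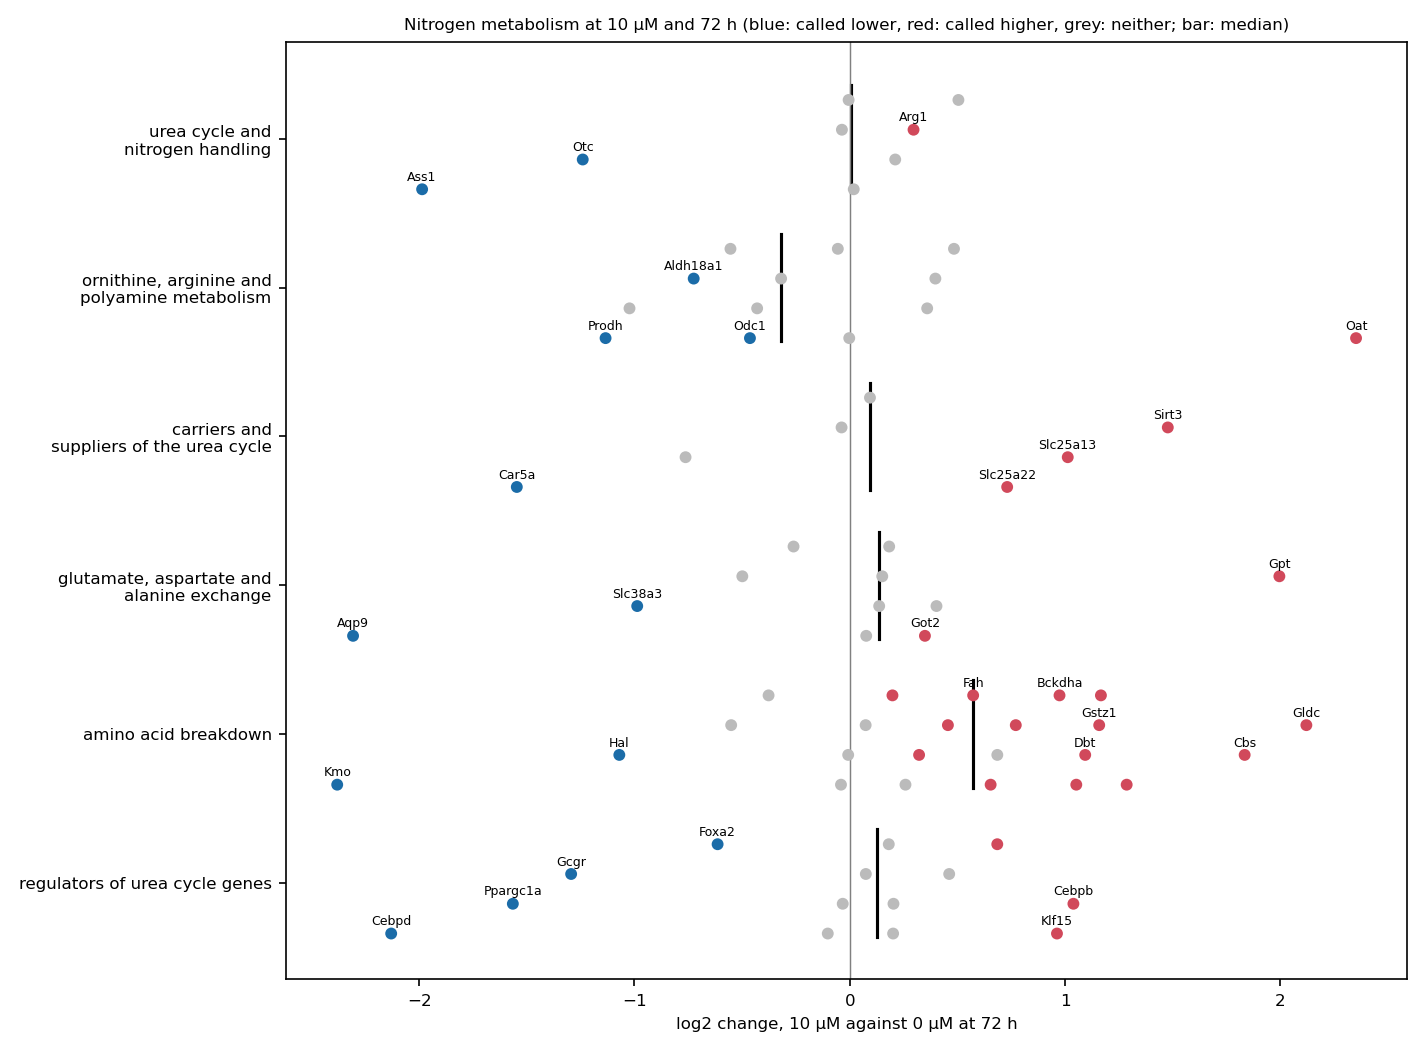
Log2 change at 10 µM against 0 µM at 72 h (x axis) of the tested genes in 6 lists of nitrogen metabolism (y axis, 1 row per list with points spread vertically for legibility). Blue points were called lower and red points higher, grey points were not called, and bars are list medians, all from fitted values with none set to 5. The row of the 8 urea cycle and nitrogen genes has 2 blue points, Ass1 and Otc, and 1 red point, Arg1.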

How the data were processed

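Total RNA from the cultures was amplified, labelled with biotin and hybridised to Affymetrix rat arrays that hold perfect-match probes, per the labels' protocols. The authors deposited log2 intensities, with each array giving each probe set a single value. Per the submitters' processing notes the tools include GCRMA and Partek; what each did is not given there. The genome build is not given in the sources used here. The values were used as deposited (array medians from 4.13 to 4.46). Of 31139 probe sets, 19069 had 1 gene symbol (61.2%), 572 several and 11498 none.

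The 100 arrays entered 1 limma fit, with a mean for each of the 30 groups (limma 3.58.1 in R 4.3.3, 70 residual degrees of freedom, two-sided, adjusted over 8843 genes). Figures used matplotlib 3.10.9. The 8 genes and the gene lists were chosen with earlier results of these data known. Named genes are all 8, up to 6 per list by p, and the 3 most like each of the 8.

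Arrays of 1 rat come from the same animal, per the labels. Within a rat, array deviations from their group's mean correlated at a median r of 0.62 (0.519 to 0.713 per rat) and -0.22 between rats. Deviations from the mean of a small group offset each other, which by itself lowers the value between rats. A fit with the rat as a replicate block was also run, and its value stands beside each result whose call it changes. Other alternatives were arrays of the compared time alone, filters, an intensity trend, quantile normalization, median centring, other probe set rules, and leaving out each rat, arrays of low signal, arrays at repeated plate positions (23 arrays, 10 of 87 positions) or with labels ending in 2 (5 arrays). Plates and dates are not named in the labels, so within-batch values could not be computed. Arrays have no read depth, and their number limits the precision.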

Additional observations from a re-analysis of the deposited data

Results flagged for a closer look

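The Ass1 change differed between times by its own test in the limma model. At 1 µM the change at 24 h differed from that at 2 h by -1.31 and the change at 72 h by -1.60, and at 10 µM the differences were -1.57 and -1.999. The Arg1 change was larger at 72 h than at 2 h by 0.39 at 1 µM and 0.45 at 10 µM, and at 24 h by 0.35 at 10 µM. The Nags change was larger at 72 h than at 2 h by 1.25 at 1 µM and 1.61 at 10 µM, and at 24 h by 1.18 at 10 µM. The 0 µM arrays of 2 h, which hold no culture of Rs628, enter each of these differences.

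For the 8 genes, 96 sets of 4 arrays (1 gene in 1 group) were checked, and in 4 of them 1 array lay far from the others by Dixon's ratio. Chance gives about 1 in 20, but the sets share arrays and are not independent. Arg1 read 12.05 in Rs628 at 10 µM and 2 h, where the next array was 12.38. Arg1 read 12.18 in Rs631 at 0.01 µM and 72 h, where the next was 12.45. Nags in Rs628 read 8.49 at 0.001 µM and 24 h (next 8.71) and 7.93 at 0.001 µM and 72 h (next 8.45).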

How the results depend on the processing

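Of the alternative values of single genes, 5583 kept their side of the threshold, 71 added a call, 66 lost a call, and none reversed a called direction. Of 167 alternative counts of genes called lower, 144 equalled the main count, 13 were higher and 10 lower. The number of genes called lower at 1 µM and 12 h was 1 and became 2 with the rat as a replicate block. It was 0 with 12 h arrays alone, without arrays at repeated positions and without arrays whose label ends in 2. It ranged from 0 to 1 when each rat was left out. Settings without the crossed 12 h arrays, with or without the block, were chosen after seeing the data. They left 1 array at 0 µM and 12 h, so their counts at 12 h and over all times are not given, though the tallies above include them. The replicate block gave 4 at 24 h and 2 at 72 h, and over all times 2 at 0.1 µM and 4 at 1 µM. At 10 µM over all times the count of 3 became 4 with the block and 2 without arrays at repeated positions, and at 1 µM and 24 h the count of 2 became 3 without arrays of low signal or those at repeated positions. At 10 µM over all times Asl was also called with the block (-0.15; adjusted p = 0.00641). Apart from these and the values given with each result, the block changed no call of the 8 genes. The cause of these shifts was not tested. Results whose call was lost in some settings, such as Ass1 at 12 h, Nags at 2 h and Otc at 72 h, rest on 3 to 4 arrays a group. One mean change per rat was not fitted.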
